A study of Eriobotrya japonica with 9 samples.

Results

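*EjJAZ1* (Ej00065656), *EjJAZ2* (Ej00030005), *EjJAZ3* (Ej00062233) and *EjJAZ4* (Ej00056492) are 4 of the 26 TIFY genes of loquat (*Eriobotrya japonica*) and 4 of its 16 JAZ genes. They were chosen because the study linked them by segmental duplication, and their identifiers come from its supplementary gene table, a criterion that rests on sequence and holds no expression value, although earlier results of these data were known when the 4 were taken up. By the substitution rates in the study's list of duplicated pairs, *EjJAZ1* and *EjJAZ2* are the closest copies of one another, and so are *EjJAZ3* and *EjJAZ4*, and these are called sister pairs here. The study's text also treats *EjJAZ2* with *EjJAZ3*, and *EjJAZ1* with *EjJAZ4*, as duplicate pairs, and all 6 combinations were compared. Its phylogeny places all 4 in a clade with *AtJAZ3*, *AtJAZ4* and *AtJAZ9* of *Arabidopsis thaliana*. The expression table holds 43996 genes, of which 31458 were above 0 in at least 1 of the 9 leaf libraries and 23641 were tested, these 4 among them. MTST plants were root-irrigated with melatonin at 150 µmol/L and then given NaCl at 200 mmol/L, ST plants were given water and then NaCl at 200 mmol/L, and CK plants were given water alone. Leaves of seedlings were sampled at day 10, with 3 libraries in each group. The study's methods describe biological replicates for salt and for water, and do not mention the melatonin group. No library came from plants given melatonin without salt, so a difference between MTST and ST is a difference under salt.

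JAZ proteins are repressors in the signaling pathway of jasmonic acid, a plant hormone made from α-linolenic acid. Through the TIFY motif of the ZIM domain they bind the adaptor NINJA and thereby corepressors of the TOPLESS family, and through the Jas domain they bind MYC2 and related transcription factors and hold them inactive. When the bioactive hormone jasmonoyl-isoleucine is formed, it joins JAZ proteins to the F-box protein COI1, the JAZ proteins are degraded by the proteasome, and the transcription factors are released. In *Arabidopsis*, many *JAZ* genes are themselves transcribed in response to jasmonate, which closes a feedback loop. *Arabidopsis* JAZ9 also binds the DELLA protein RGA of the gibberellin pathway, and *Arabidopsis* JAZ4 binds ICE1, an activator of the cold response. Transcript levels, as measured here, do not give the amount of JAZ protein.

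*EjJAZ2* and *EjJAZ4* were 2 of the genes that the study also assayed by qRT-PCR, which was not analysed here. The oligonucleotides below are shown because the study designed them for these copies, and they carry the names of the study's primer list.
EjJAZ2_3F: gagaaccaggagctgaagaa
EjJAZ2_1R: cagaaagtaagcgaagaaatacc
EjJAZ4_2F: accagtcaagggatttatgttc
EjJAZ4_2R: gagccgtatgtttcatggtag
The oligonucleotides are 20 to 23 bases long, and no base is marked in capitals. Transcript lengths recovered from the expression values were 1761 bases for *EjJAZ1*, 1423 for *EjJAZ2*, 1530 for *EjJAZ3* and 1518 for *EjJAZ4*. All 4 genes carry the KEGG map plant hormone signal transduction in the deposited table. *EjJAZ1* and *EjJAZ2* each carry 60 biological process terms of the Gene Ontology, all 60 of them shared, while the table lists none for *EjJAZ3* or *EjJAZ4*.

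Libraries held 13474045 to 14468499 reads in MTST, 13048770 to 13597345 in ST and 13464774 to 13951747 in CK. Levels are given as TPM, a unit that corrects for gene length and for library total. Replicates differed by more than counting noise, and the mean of chi-square over genes was 3.11 to 27.2 between pairs of replicates, where counting noise alone gives about 1. ST replicate 1 and CK replicate 3 stood farthest from the other libraries of their groups, and results that turn on either are given with and without it. The 10 most abundant genes took 9.77% ± 0.516 of all TPM in MTST, 5.87% ± 0.285 in ST and 11.3% ± 0.193 in CK (SD, n = 3 each). On the TPM scale, the median log2 fold change over all tested genes was 0.41 for ST over CK, −0.22 for MTST over ST and 0.19 for MTST over CK. With median-of-ratios scaling these medians were 0.014, −0.0019 and 0.0086, so small changes on the TPM scale must be read against that shift.

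The 4 genes stood at very different levels in the same leaves. *EjJAZ1* was the most abundant in each of the 9 libraries, at 64.1 to 79.6 TPM, above 90.0% to 91.7% of the detected genes. *EjJAZ3* came next in each library, at 13.3 to 54.6 TPM. *EjJAZ4* followed in MTST and ST, and in CK its range of 2.16 to 3.59 TPM overlapped the 1.25 to 2.93 TPM of *EjJAZ2*. *EjJAZ2* reached 1 TPM in 7 of the 9 libraries (3 of MTST, 1 of ST and 3 of CK) and was the least abundant in all but CK replicate 3. It thereby passed the filter of 1 TPM in at least 3 libraries, as the other copies did with all 9. All values come from bulk leaf tissue, in which fewer cells of a type and less RNA per cell cannot be told apart. The sources used here do not say how reads that match more than 1 gene were counted, so the split of reads between close copies is uncertain.

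**Figure D1:**
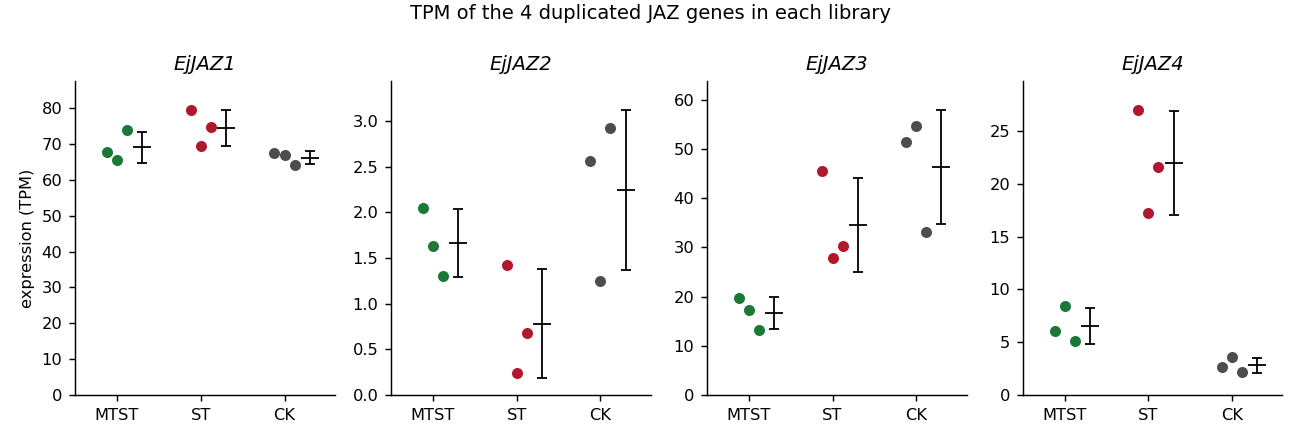
TPM of *EjJAZ1* to *EjJAZ4* in the 9 libraries, with MTST, ST and CK from left to right. Each point is 1 library and the bar beside the points is the mean ± SD (n = 3). The vertical axes start at 0 and differ in range. *EjJAZ3* lies at 13.3 to 19.7 TPM in MTST, below its other libraries, and *EjJAZ4* lies at 17.2 to 27.1 TPM in ST, above its other libraries.

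Of the 4 copies, *EjJAZ4* had the largest fold difference between groups, although the means of *EjJAZ3* spanned more TPM. It had 6.09, 8.46 and 5.08 TPM in MTST, 27.1, 17.2 and 21.6 TPM in ST and 2.68, 3.59 and 2.16 TPM in CK. The ranges of the 3 groups did not overlap, with ST on top, MTST in the middle and CK at the bottom. The means were 6.54 ± 1.73 TPM in MTST, 21.97 ± 4.92 in ST and 2.81 ± 0.726 in CK (SD, n = 3 each). In rank terms, *EjJAZ4* lay above 38.3% to 49.0% of the detected genes in MTST, above 62.4% to 73.1% in ST and above 27.7% to 34.9% in CK.

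Under salt alone, *EjJAZ4* rose by 2.59 on the log2(TPM + 1) scale over CK (SE 0.215, 95% interval 2.11 to 3.07, adjusted p = 7.28e-06, limma). The mean TPM in ST was 7.83 times that in CK, and 1.87% of all tested genes had a larger change in either direction. With melatonin before salt, *EjJAZ4* fell by 1.61 relative to ST (SE 0.215, 95% interval −2.09 to −1.13, adjusted p = 0.000534), and 2.55% of tested genes had a more negative change. The melatonin group nevertheless stayed above the watered controls, with a rise of 0.98 in MTST over CK (95% interval 0.50 to 1.46, adjusted p = 0.00500). The mean TPM of MTST was 0.298 times that of ST and 2.33 times that of CK. This set of calls, higher in ST than in CK, lower in MTST than in ST and higher in MTST than in CK, was shared by 1799 of the 23641 tested genes (7.61%), *EjJAZ4* included. All 3 calls held under each alternative processing tried and without each single library. Without both ST replicate 1 and CK replicate 3, the changes were 2.31 for ST over CK, −1.45 for MTST over ST and 0.85 for MTST over CK.

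Its copy *EjJAZ3* followed another course. It had 19.7, 17.3 and 13.3 TPM in MTST, 45.5, 27.8 and 30.3 TPM in ST and 51.5, 54.6 and 33.1 TPM in CK. The MTST libraries lay below every other library, whereas ST and CK overlapped. The means were 16.7 ± 3.24 TPM in MTST, 34.5 ± 9.58 in ST and 46.4 ± 11.6 in CK (SD, n = 3 each).

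Melatonin before salt was accompanied by a fall of *EjJAZ3* below both other groups. It fell by 0.99 on the log2 scale relative to ST (SE 0.228, 95% interval −1.49 to −0.48, adjusted p = 0.00797) and by 1.40 relative to CK (SE 0.228, 95% interval −1.91 to −0.90, adjusted p = 0.000952). In MTST over CK, 1.31% of all tested genes had a more negative change. The mean TPM of MTST was 0.485 times that of ST and 0.361 times that of CK. Both calls held under every alternative tried and without each single library, and without both ST replicate 1 and CK replicate 3 the changes were −0.77 relative to ST and −1.62 relative to CK.

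The effect of salt alone on *EjJAZ3* was smaller and its call depended on the processing. The log2 fold change of ST over CK was −0.42 (SE 0.228, 95% interval −0.92 to 0.09, adjusted p = 0.131). It passed the threshold with median-of-ratios scaling (−0.86, adjusted p = 0.0111), without ST replicate 1 (−0.63, adjusted p = 0.0287), without CK replicate 3 (−0.64, adjusted p = 0.0251) and without both (−0.85, adjusted p = 0.00125). It also passed in limma with the replicate number as a block (−0.42, adjusted p = 0.0426). Of the tested genes, 636 (2.69%) had the calls of *EjJAZ3*, lower in MTST than in ST and than in CK, with no call between ST and CK.

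*EjJAZ1*, the abundant copy of the other pair, varied little. It had 67.7, 65.7 and 73.9 TPM in MTST, 79.6, 69.4 and 74.7 TPM in ST and 67.6, 66.9 and 64.1 TPM in CK. On the TPM scale the ST libraries lay above the CK libraries and the MTST libraries overlapped both. In FPKM as deposited, ST replicate 2 (47.2) lay below CK replicate 1 (48.0) and CK replicate 2 (47.4). The means were 69.1 ± 4.30 TPM in MTST, 74.6 ± 5.09 in ST and 66.2 ± 1.86 in CK (SD, n = 3 each).

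No comparison of *EjJAZ1* passed the threshold on the TPM scale. Its log2 fold change was 0.17 for ST over CK (SE 0.0804, 95% interval −0.01 to 0.35, adjusted p = 0.0910), −0.11 for MTST over ST (95% interval −0.29 to 0.07, adjusted p = 0.311) and 0.060 for MTST over CK (95% interval −0.12 to 0.24, adjusted p = 0.582). After subtraction of the median change of all genes in each comparison, the values were −0.24, 0.11 and −0.13. The sign of all 3 turned with median-of-ratios scaling, to −0.28 for ST over CK (adjusted p = 0.00948, past the threshold), 0.13 for MTST over ST and −0.15 for MTST over CK, so no direction is given for *EjJAZ1*. Of the tested genes, 6155 (26.04%) passed in none of the 3 comparisons, as *EjJAZ1* did.

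*EjJAZ2*, the weak copy of this pair, rested on few reads. It had 2.05, 1.63 and 1.30 TPM in MTST, 1.42, 0.238 and 0.681 TPM in ST and 2.56, 1.25 and 2.93 TPM in CK. These levels correspond to 29, 23 and 19 reads in MTST, 18, 3 and 9 reads in ST and 35, 17 and 42 reads in CK. The ST libraries were low and the highest of them, ST replicate 1, overlapped both other groups. The means were 1.66 ± 0.372 TPM in MTST, 0.779 ± 0.597 in ST and 2.25 ± 0.881 in CK (SD, n = 3 each).

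Under salt alone, *EjJAZ2* fell by 0.88 on the log2(TPM + 1) scale relative to CK (SE 0.287, 95% interval −1.52 to −0.24, adjusted p = 0.0210). This scale understates changes at such low levels, and limma-voom on the recovered reads gave −1.77 (adjusted p = 0.0219). As a share of all reads, *EjJAZ2* in ST stood at 0.327 times its share in CK (30 reads against 94, exact 95% interval 0.209 to 0.498, counting error only). The call was lost without ST replicate 2 (−0.65, adjusted p = 0.0728), ST replicate 3 (−0.87, adjusted p = 0.0532), CK replicate 1 (−0.80, adjusted p = 0.0706), and also when CK replicate 3 was left out (−0.72, adjusted p = 0.0736). Without both ST replicate 1 and CK replicate 3 it stood at −0.97 (adjusted p = 0.0173). For MTST over ST the log2 fold change was 0.63 (SE 0.287, 95% interval −0.01 to 1.26, adjusted p = 0.110), and it passed without ST replicate 1 (0.87, adjusted p = 0.0393). With a pseudocount of 0.1 it was 1.24 (adjusted p = 0.0959), with limma-voom on the recovered reads 1.41 (adjusted p = 0.0917), and with voom and median-of-ratios scaling 1.55 (adjusted p = 0.0696). As a share of all reads, *EjJAZ2* in MTST stood at 2.26 times its share in ST (71 reads against 30, exact 95% interval 1.45 to 3.58), an interval that does not include the spread between replicates. For MTST over CK it was −0.26 (95% interval −0.89 to 0.38, adjusted p = 0.506), which leaves differences of either sign within the interval at this depth. The calls of *EjJAZ2*, lower in ST than in CK and no other, were those of 340 tested genes (1.44%).

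No comparison moved all 4 copies past the threshold. In ST over CK, *EjJAZ4* rose and *EjJAZ2* fell, where 52.8% of all tested genes were called higher and 10.6% lower at an adjusted p of at most 0.05. In MTST over ST, *EjJAZ3* and *EjJAZ4* fell, where 7.90% were called higher and 29.8% lower. In MTST over CK, *EjJAZ4* rose and *EjJAZ3* fell, where 29.7% were called higher and 10.9% lower. The 3 comparisons share libraries in pairs and are not independent of one another. With 4 genes, these counts are a description and are not set apart from the background.

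**Figure D2:**
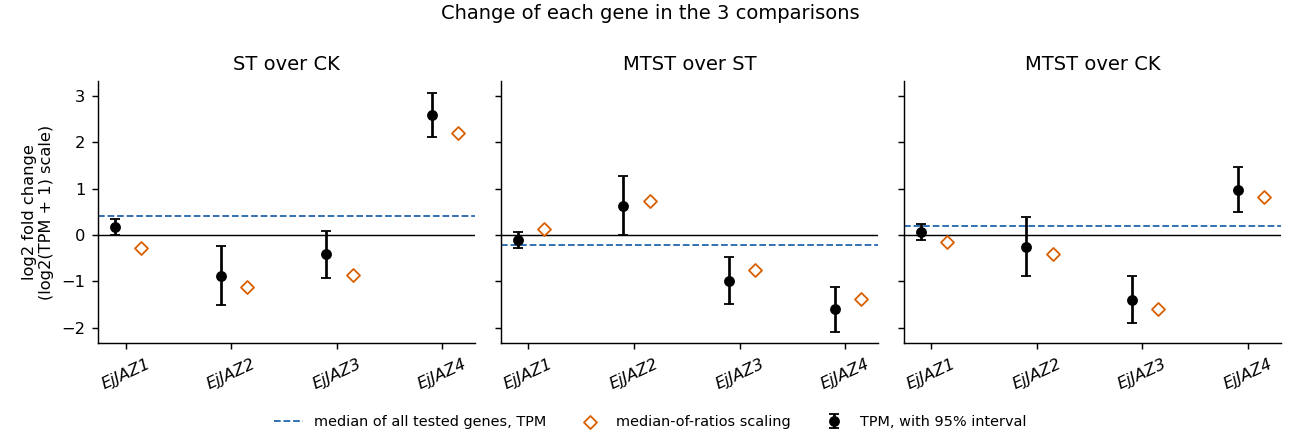
Log2 fold change of *EjJAZ1* to *EjJAZ4* in each comparison, with 95% intervals from limma as black points and bars. Diamonds give the same value after median-of-ratios scaling, and the dashed line is the median of all tested genes on the TPM scale. *EjJAZ4* lies at 2.59, −1.61 and 0.98, with the diamonds on the same side of 0, whereas the diamonds of *EjJAZ1* lie on the other side of 0 from its points in all 3 panels.

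The balance between copies was compared within each library, where a common scale factor of the library has no part other than through the pseudocount of 1. All 6 pairs of the 4 genes were tested over the 9 libraries by an exact permutation test with 1680 assignments, whose smallest possible p is 0.00357, and p-values were adjusted over the 6 pairs, which share genes. Single comparisons of 3 against 3 libraries cannot go below an exact permutation p of 0.10 and are given as values.

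Within the sister pair of *EjJAZ3* and *EjJAZ4*, the 3 groups held separate ranges of the ratio. The log2 ratio of *EjJAZ4* to *EjJAZ3*, each as TPM + 1, was −1.55, −0.95 and −1.23 in MTST, −0.73, −0.66 and −0.47 in ST and −3.84, −3.60 and −3.43 in CK. No group overlapped another (exact permutation p = 0.00357, adjusted p = 0.00714). The difference between group means was 3.01 for ST minus CK, −0.62 for MTST minus ST and 2.38 for MTST minus CK. As a share of the summed TPM of the pair, *EjJAZ4* made up 28.1% ± 4.66 in MTST, 39.1% ± 2.30 in ST and 5.74% ± 0.696 in CK (SD, n = 3 each).

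The shift in balance did not come with a constant sum. *EjJAZ3* and *EjJAZ4* together held 23.3 ± 4.26 TPM in MTST, 56.5 ± 14.3 in ST and 49.2 ± 12.2 in CK (SD, n = 3 each). The sum in MTST, at 18.4 to 25.8 TPM, lay below the 45.0 to 72.5 TPM of ST and the 35.3 to 58.2 TPM of CK, which overlapped each other. The share of *EjJAZ4* was thus larger than in CK both in MTST, where the sum lay below the CK range, and in ST, where it overlapped that range.

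Within the pair of *EjJAZ1* and *EjJAZ2*, the first copy made up nearly all transcripts in every library. *EjJAZ2* held 2.93%, 2.43% and 1.73% of the summed TPM in MTST, 1.75%, 0.341% and 0.903% in ST and 3.65%, 1.84% and 4.37% in CK. The means were 2.37% ± 0.603 in MTST, 0.999% ± 0.710 in ST and 3.29% ± 1.30 in CK (SD, n = 3 each). At the low level of *EjJAZ2*, adding 1 TPM to each copy pulls the log2 ratio toward 0 and narrows differences between groups. On that scale, the log2 ratio of *EjJAZ2* to *EjJAZ1* averaged −4.73 in MTST, −5.46 in ST and −4.41 in CK (exact permutation p = 0.0321, adjusted p = 0.0321). This result was lost without MTST replicate 1 or 2, ST replicate 2 or 3, or CK replicate 1 or 3, with exact permutation p-values of 0.0536 to 0.132, and without both ST replicate 1 and CK replicate 3 (0.0857). It was also lost with the replicate number as a block (exact permutation p = 0.0833). Their summed level was 70.8 ± 4.05 TPM in MTST, 75.3 ± 5.68 in ST and 68.4 ± 1.59 in CK (SD, n = 3 each).

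**Figure D3:**
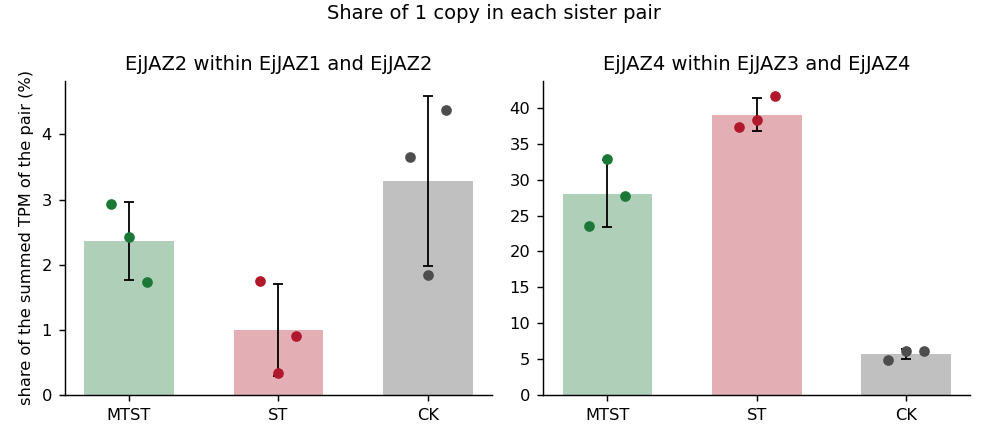
Share of *EjJAZ2* in the summed TPM of *EjJAZ1* and *EjJAZ2* (left) and of *EjJAZ4* in the summed TPM of *EjJAZ3* and *EjJAZ4* (right), in percent. Bars are means of 3 libraries with the SD, and points are libraries. The share of *EjJAZ4* is 23.6% to 32.9% in MTST, 37.3% to 41.7% in ST and 4.94% to 6.17% in CK, while the share of *EjJAZ2* is 0.341% to 4.37% over the 9 libraries.

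The remaining 4 ratios, also with each copy as TPM + 1, join a copy of one sister pair to a copy of the other. Those with *EjJAZ2* are affected most by the added 1. The log2 ratio of *EjJAZ4* to *EjJAZ1* averaged −3.24 in MTST, −1.74 in ST and −4.16 in CK (exact permutation p = 0.00357, adjusted p = 0.00714), with no overlap between groups. That of *EjJAZ4* to *EjJAZ2* averaged 1.49 in MTST, 3.72 in ST and 0.25 in CK (exact permutation p = 0.00357, adjusted p = 0.00714). In CK replicate 3 this ratio was −0.32, the single library in which *EjJAZ2* exceeded *EjJAZ4*. The log2 ratio of *EjJAZ3* to *EjJAZ1* averaged −2.00 in MTST, −1.12 in ST and −0.54 in CK (exact permutation p = 0.00714, adjusted p = 0.0107), with MTST apart and ST overlapping CK. For *EjJAZ3* to *EjJAZ2* the means were 2.73 in MTST, 4.34 in ST and 3.88 in CK (exact permutation p = 0.0179, adjusted p = 0.0214), and this result was lost without ST replicate 2 (exact permutation p = 0.0571) or without any 1 of the 3 MTST libraries (0.0536 each). It was also lost with the replicate number as a block (exact permutation p = 0.0556).

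The summed level of the 4 copies was 93.0 to 95.5 TPM in MTST, 115 to 154 TPM in ST and 102 to 126 TPM in CK. MTST lay below both other groups, which overlapped. *EjJAZ1* made up most of this sum in each of the 9 libraries.

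Likeness among the copies, as Pearson's r of log2(TPM + 1) over the 9 libraries, was low for the closest relatives. It was −0.43 between *EjJAZ1* and *EjJAZ2* and −0.060 between *EjJAZ3* and *EjJAZ4*. *EjJAZ1* and *EjJAZ4*, from different sister pairs, had 0.74, and *EjJAZ2* and *EjJAZ4* had −0.71. *EjJAZ1* with *EjJAZ3* had 0.015 and *EjJAZ2* with *EjJAZ3* had 0.11. These coefficients are a description, since the 9 points are 3 groups of 3 libraries and share the scale of each library. They were computed on the TPM scale only. With median-of-ratios scaling, *EjJAZ1* had −0.28, 0.13 and −0.15 in ST over CK, MTST over ST and MTST over CK. There *EjJAZ4* had 2.20, −1.38 and 0.82, opposite in sign each time. The sign of coefficients that involve *EjJAZ1* may thus depend on the scale, which was not tested.

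Among the other 24 tested TIFY genes, the 3 other copies included, each copy had different nearest genes. *EjJAZ3* was most like *EjJAZ9* (r = 0.97) and *EjJAZ14* (0.95), both JAZ genes, and 17 of 23640 other tested genes were at least as like it as *EjJAZ9*. *EjJAZ4* was most like *EjJAZ11* (0.94) and *EjJAZ12* (0.88), also JAZ genes, with 796 genes at least as like it as *EjJAZ11*. *EjJAZ1* was most like *EjZML5* (0.86), of the ZML subfamily of GATA-type zinc finger proteins, and *EjJAZ16* (0.84), with 551 genes at least as like it as *EjZML5*. *EjJAZ2* was most like *EjTIFY2* (0.79) and *EjPPD1* (0.64), which are outside the JAZ subfamily, with 197 genes at least as like it as *EjTIFY2*. Of the 24 genes, the one least like *EjJAZ1* on the TPM scale was *EjJAZ2*, its own closest copy. *EjJAZ2* had only 3 to 42 reads in a library. With median-of-ratios scaling, *EjJAZ1* and *EjJAZ2* changed with the same sign in all 3 comparisons. Their values were −0.28 and −1.125 for ST over CK, 0.13 and 0.72 for MTST over ST, and −0.15 and −0.40 for MTST over CK. Likeness on that scale was not computed.

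The other JAZ repressors gave the setting for these values. Of the other 12 *EjJAZ* genes, 11 were tested. In ST over CK, 5 of the 11 rose and 6 did not pass (median log2 fold change 0.61, against 0.41 for all tested genes), with the largest rise in *EjJAZ6* (1.80, adjusted p = 0.000636), at 12.3 TPM in ST and 2.79 TPM in CK. In MTST over ST, 5 fell and 6 did not pass (median −0.54, against −0.22), with the largest fall again in *EjJAZ6* (−1.83, adjusted p = 0.00177), at 2.89 TPM in MTST and 12.3 TPM in ST. In MTST over CK, 3 fell and 8 did not pass (median −0.26, against 0.19), with the largest fall in *EjJAZ9* (−1.15, adjusted p = 0.00450), at 36.5 TPM in MTST and 83.0 TPM in CK. Of all tested genes, 52.8% were called higher and 10.6% lower in ST over CK. The shares were 7.90% and 29.8% in MTST over ST, and 29.7% and 10.9% in MTST over CK. *EjJAZ4* had a larger rise in ST over CK than any of the 11, and *EjJAZ3* a larger fall in MTST over CK than any of the 11, as values of a description. Scaling mattered for these counts: with median-of-ratios scaling, 1 rose and 4 fell in ST over CK, 3 fell in MTST over ST and 5 fell in MTST over CK. Over all 23641 tested genes, that scale gave 5383 rises and 5538 falls in ST over CK. It gave 3559 and 3225 in MTST over ST, and 4036 and 4430 in MTST over CK. Without both ST replicate 1 and CK replicate 3, 4 of the 11 rose and 4 fell in ST over CK, and 2 rose and 6 fell in MTST over CK.

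**Figure D4:**
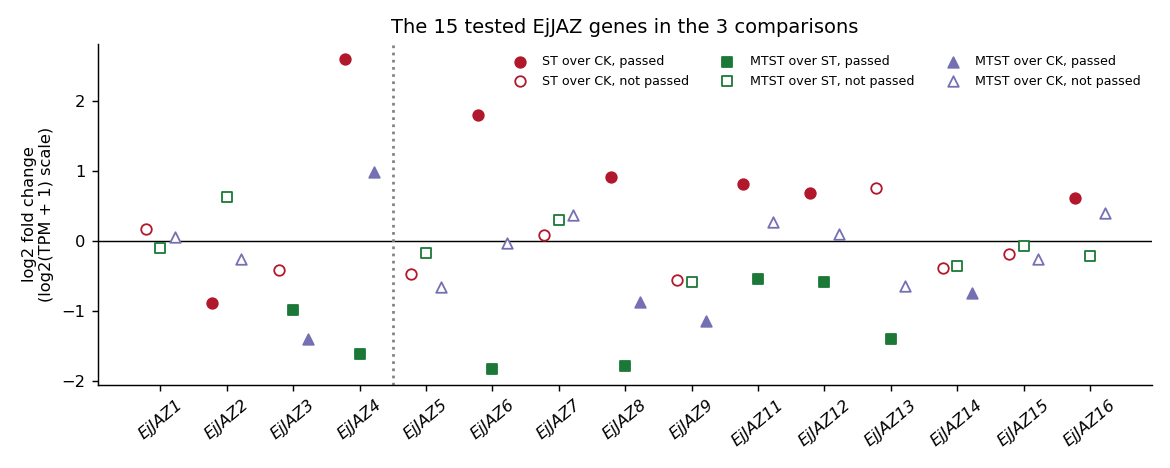
Log2 fold change of the 15 tested *EjJAZ* genes in ST over CK (circles), MTST over ST (squares) and MTST over CK (triangles). Filled symbols passed an adjusted p of 0.05 and open symbols did not, and the dotted line sets *EjJAZ1* to *EjJAZ4* apart from the others. *EjJAZ4* has the highest circle at 2.59, and *EjJAZ3* has the lowest triangle at −1.40.

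Outside the JAZ subfamily, the remaining 10 TIFY genes, of the ZML, PPD and TIFY subfamilies, were all tested. In ST over CK, 6 rose and 2 fell (median 0.41), where 52.8% of all tested genes rose and 10.6% fell. In MTST over CK, 4 rose (median 0.28), where 29.7% of all tested genes rose, so both shares of rises were near the background. In MTST over ST the median was −0.09 and 0 of the 10 passed with limma on log2(TPM + 1), where 1 was higher and 1 lower at an unadjusted p under 0.05, and limma-voom on the recovered reads called 1 higher. In that comparison 7.90% of all tested genes rose and 29.8% fell. With median-of-ratios scaling, 1 of the 10 rose and 3 fell in ST over CK, 3 rose in MTST over ST, and 1 rose and 2 fell in MTST over CK. All tested genes then had 5383 rises and 5538 falls in ST over CK. They had 3559 and 3225 in MTST over ST, and 4036 and 4430 in MTST over CK.

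Wider lists of hormone signaling and jasmonic acid genes from the deposited annotation, without the 4 copies, are given for comparison. Of 251 tested genes on the plant hormone signal transduction map, 142 rose and 27 fell in ST over CK, 17 rose and 79 fell in MTST over ST, and 79 rose and 25 fell in MTST over CK, with medians of 0.48, −0.23 and 0.20. Of 238 tested genes annotated to the response to jasmonic acid or its signaling, 130 rose and 35 fell in ST over CK, 13 rose and 103 fell in MTST over ST, and 61 rose and 41 fell in MTST over CK, with medians of 0.42, −0.33 and 0.11. In ST over CK both lists lay near the median of all tested genes (0.41), of which 52.8% rose and 10.6% fell. In MTST over ST, 7.90% of all tested genes rose and 29.8% fell (median −0.22). There the hormone map lay near that median and the jasmonic acid response list below it. In MTST over CK, 29.7% of all tested genes rose and 10.9% fell (median 0.19), and the same held.

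The lists closest to the making of the hormone had medians farther from 0 in ST over CK and MTST over ST. Of 50 tested genes on the map of α-linolenic acid metabolism, the route to jasmonic acid, 26 rose and 7 fell in ST over CK, 5 rose and 23 fell in MTST over ST, and 15 rose and 11 fell in MTST over CK, with medians of 0.57, −0.49 and 0.12. Of 32 tested genes annotated to jasmonic acid metabolism or biosynthesis, 20 rose and 3 fell in ST over CK, 1 rose and 21 fell in MTST over ST, and 9 rose and 8 fell in MTST over CK, with medians of 0.70, −0.74 and 0.054. The medians of all tested genes had the same signs (0.41, −0.22 and 0.19), and for MTST over CK both lists lay below the median of all genes. Of all tested genes, 52.8% rose and 10.6% fell in ST over CK, 7.90% and 29.8% in MTST over ST, and 29.7% and 10.9% in MTST over CK. With median-of-ratios scaling the medians for MTST over CK turned to −0.07 for the map of α-linolenic acid metabolism and −0.12 for the list of metabolism or biosynthesis, and the signs in the other comparisons stayed.

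The balance of rises and falls in all these lists moved with the scale. With median-of-ratios scaling, the hormone map had 74 rises and 54 falls in ST over CK, 37 and 39 in MTST over ST, and 51 and 43 in MTST over CK. The list of jasmonic acid response and signaling had 70 rises and 72 falls in ST over CK, 29 and 62 in MTST over ST, and 44 and 70 in MTST over CK. The map of α-linolenic acid metabolism had 18 rises and 14 falls in ST over CK, 6 and 17 in MTST over ST, and 14 and 16 in MTST over CK. The list of jasmonic acid metabolism or biosynthesis had 15 rises and 5 falls in ST over CK, 1 and 17 in MTST over ST, and 9 and 10 in MTST over CK. Over all tested genes, 5383 rose and 5538 fell in ST over CK on that scale, 3559 and 3225 in MTST over ST, and 4036 and 4430 in MTST over CK.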

How the data were processed

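RNA sequencing of leaves gave 9 libraries in 3 groups (MTST, ST, CK), assigned from their labels, and all 9 sample columns were mapped. According to the methods, the authors trimmed the reads, mapped them to the JFZ genome of loquat by HISAT2, obtained read counts per gene by Rsubread and calculated FPKM, the unit of the deposited table. Tool versions, strand and the treatment of reads matching several genes were not given in the sources used here. The table also holds the authors' own differential expression columns (log2 fold changes and p-values), which were not used.

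FPKM was rescaled to TPM, which changes any gene when the most abundant genes change. Whole read numbers and gene lengths (60 to 20000 bases) were recovered from the steps of the FPKM values for 31458 of 31458 genes above 0, within 1e-05 reads, and their sums reached 99.979% to 99.984% of each library total. Log2(TPM + 1) was compared with limma 3.58.1 in R 4.3.3 (mean-variance trend, group as the only term, 9 libraries in 1 fit), over the 23641 genes that reached 1 TPM in 3 or more libraries. Benjamini-Hochberg adjustment covered all of these, with a threshold of 0.05. Ratios of copies were tested by exact permutation, two-sided by construction, in Python 3.11.15 with numpy 2.4.6. Exact intervals on read shares were calculated with scipy 1.17.1. Both tests were checked on simulated data. For limma these had a single fixed dispersion, few changed genes and no shift of the median gene. That check therefore does not cover the choice of scale or the uneven spread between replicates.

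The alternatives were a pseudocount of 0.1, no filter, FPKM as deposited, median-of-ratios scaling, the 2 groups alone, a replicate block, limma-voom on recovered reads and each library left out. Voom with median-of-ratios scaling, and leaving out ST replicate 1 with CK replicate 3, were added after seeing the data. Jasmonic acid lists were built from Gene Ontology identifiers in the table. The text names the 4 copies, for each the 2 most similar of the other 24 TIFY genes, and the largest rise and fall among the other *EjJAZ* genes. The 4 copies, the lists and the alternatives were chosen with earlier results of these data known. Intervals on reads cover counting error only.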

Additional observations from a re-analysis of the deposited data

How the results depend on the processing

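For *EjJAZ4* in all 3 comparisons and for *EjJAZ3* in MTST over ST and MTST over CK, direction and call held under all 18 alternatives. The ranges for *EjJAZ4* were 2.20 to 2.93 for ST over CK, −1.79 to −1.38 for MTST over ST and 0.80 to 1.21 for MTST over CK, and those for *EjJAZ3* were −1.12 to −0.75 and −1.67 to −1.25. With median-of-ratios scaling, *EjJAZ1* had −0.28 for ST over CK, 0.13 for MTST over ST and −0.15 for MTST over CK, each with the sign turned, and *EjJAZ3* had −0.86 for ST over CK, and with voom added these were −0.28, 0.13, −0.15 and −0.88. Genes called higher and lower were 5383 and 5538 for ST over CK, 3559 and 3225 for MTST over ST and 4036 and 4430 for MTST over CK with median-of-ratios scaling, and 5170 and 5539, 3627 and 3403, and 3659 and 4452 with voom added, against 12489 and 2504, 1867 and 7045, and 7010 and 2573 on the TPM scale. The change follows from the scale, which sets the median gene near 0. With libraries left out, ST over CK ranged over −1.13 to −0.65 for *EjJAZ2* and −0.85 to −0.28 for *EjJAZ3*, MTST over ST ranged over 0.39 to 0.87 for *EjJAZ2*, and the exact permutation p ranged over 0.0143 to 0.132 for the ratio of *EjJAZ2* to *EjJAZ1* and 0.00357 to 0.0571 for *EjJAZ3* to *EjJAZ2*. Libraries with the same replicate number did not deviate together over all tested genes (9 correlations of −0.152 to 0.0831). With 3 libraries in each group, these correlations cannot settle whether the numbers pair the samples. With a replicate block, *EjJAZ3* in ST over CK kept −0.42 and passed (adjusted p = 0.0426), the exact permutation p was 0.0833 for *EjJAZ2* to *EjJAZ1* and 0.0556 for *EjJAZ3* to *EjJAZ2*, and no other call of the 4 genes or their ratios changed. Depth limits *EjJAZ2* most, with 3 to 42 reads in a library, and the split of reads between close copies was not tested.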
